A study of Arabidopsis thaliana with 109 samples.

Results

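The 9 clade D type 2C protein phosphatases of Arabidopsis thaliana, PP2C.D1 to PP2C.D9, were followed through 3 expression tables of seedlings under light with a low ratio of red to far-red (low R:FR), which signals shade by neighbouring plants. They were taken by gene identifier, 9 of the 33602 gene models listed: PP2C.D1 (AT5G02760), PP2C.D2 (AT3G17090), PP2C.D3 (AT3G12620), PP2C.D4 (AT3G55050), PP2C.D5 (AT4G38520), PP2C.D6 (AT3G51370), PP2C.D7 (AT5G66080), PP2C.D8 (AT4G33920) and PP2C.D9 (AT5G06750). The family was chosen by a measured value, the higher TPM of PP2C.D1 at 2 h of low R:FR than in white light, so that contrast is described without tests of the members. Table I covers light-grown wild type (Col-0) seedlings given 2 h of low R:FR, given the same 2 h and then returned to white light for 2 h (recovery), or kept in white light, with 3 libraries each. Table II holds pif457, a mutant in the shade-response transcription factors PIF4, PIF5 and PIF7, carrying PIF7 tagged with 4xMYC (PIF7:PIF7:4xMYC in the labels), kept in white light or given low R:FR for 5, 10 or 30 min, with 3 libraries each. Table III covers pif457 and wild type given 30 min of low R:FR or kept in white light, with 2 libraries each.

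PP2C.D phosphatases are known as brakes on cell expansion. In acid growth, auxin leads to phosphorylation of plasma membrane H+-ATPases (AHA proteins) at a threonine next to the C-terminal residue, 14-3-3 proteins bind there, and the pumps acidify the cell wall. PP2C.D2, PP2C.D5 and PP2C.D6 remove that phosphate, and small auxin-up RNA (SAUR) proteins such as SAUR19 bind and inhibit these phosphatases. PP2C.D1 is also known as SSPP, a senescence-suppressed phosphatase, and as MIDA9, which acts in the apical hook of etiolated seedlings.

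Transcript levels are the authors' TPM, a share of the transcripts of a library that is scaled for gene length and keeps no read depth, so depth is unknown. Genes at 1 TPM or more numbered 17714 to 19215 per library. The genotype labels held: in pif457 libraries PIF7 stood at 0.35 to 1.47 TPM and PIF5 at 1.60 to 4.03 TPM, against 21.6 to 28.0 TPM for PIF7 and 19.2 to 42.7 TPM for PIF5 in wild type of table III. PIF4 stood at 3.12 to 11.9 TPM in pif457 and 13.7 to 47.1 TPM in wild type. The tagged line had 126 ± 8.71 TPM of PIF7 in white light (SD, n = 3), in a table normalised separately. All 5 green shoot markers, all 6 root markers and both dry seed markers were detected in every group. A pif457 library stood apart, replicate 1 at 30 min of low R:FR, where rRNA and organellar transcripts took 23.1% of TPM, against 1.24 to 12.8% in the others. In these whole-sample libraries, fewer cells that express a gene and less RNA of it per cell cannot be told apart. The labels do not state whether replicates were grown separately, and p-values then reflect only how these libraries vary, which may be technical.

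All 9 phosphatases were expressed in white light, at levels that differed widely between members. In wild type of table I, PP2C.D6 was highest at 69.5 ± 6.72 TPM, followed by PP2C.D5 at 56.1 ± 4.56 TPM and PP2C.D2 at 35.2 ± 2.64 TPM (SD, n = 3). PP2C.D1 averaged 22.2 ± 5.57 TPM, PP2C.D3 20.4 ± 5.88 TPM, PP2C.D4 17.3 ± 1.62 TPM and PP2C.D8 13.1 ± 2.14 TPM. PP2C.D9 at 6.73 ± 2.01 TPM and PP2C.D7 at 3.50 ± 2.18 TPM were lowest. The libraries of neighbours in this order did not overlap, except between PP2C.D1 and PP2C.D3, between PP2C.D3 and PP2C.D4, and between PP2C.D9 and PP2C.D7. PP2C.D2, PP2C.D5 and PP2C.D6 together held 161 ± 5.04 of the 244 ± 11.5 TPM of the family.

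The white light order was similar in the other tables, with some exchanges. In the tagged line PP2C.D6 averaged 75.7 ± 4.14 TPM and PP2C.D7 was again lowest at 2.93 ± 0.96 TPM, while PP2C.D1, at 12.0 ± 1.88 TPM, lay below PP2C.D8, at 14.7 ± 0.67 TPM. In wild type of table III PP2C.D5, at 70.7 ± 7.19 TPM (SD, n = 2), lay above PP2C.D6, at 63.8 ± 1.12 TPM.

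At 2 h of low R:FR, PP2C.D1 was the dominant transcript of the family. Its level was 306.8, 354.1 and 365.1 TPM in the 2 h libraries, 68.4, 44.4 and 67.0 TPM in the recovery libraries, and 28.4, 17.8 and 20.4 TPM in the white light libraries. No 2 of these groups overlapped. On log2(TPM + 1), the scale of every log2 change given here, PP2C.D1 was higher by 3.91 at 2 h than in white light, which is a 15.0-fold difference. It made up 54.1 to 57.9% of the TPM of the family at 2 h, 16.7 to 22.0% on recovery and 7.41 to 11.1% in white light.

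**Figure D1:**
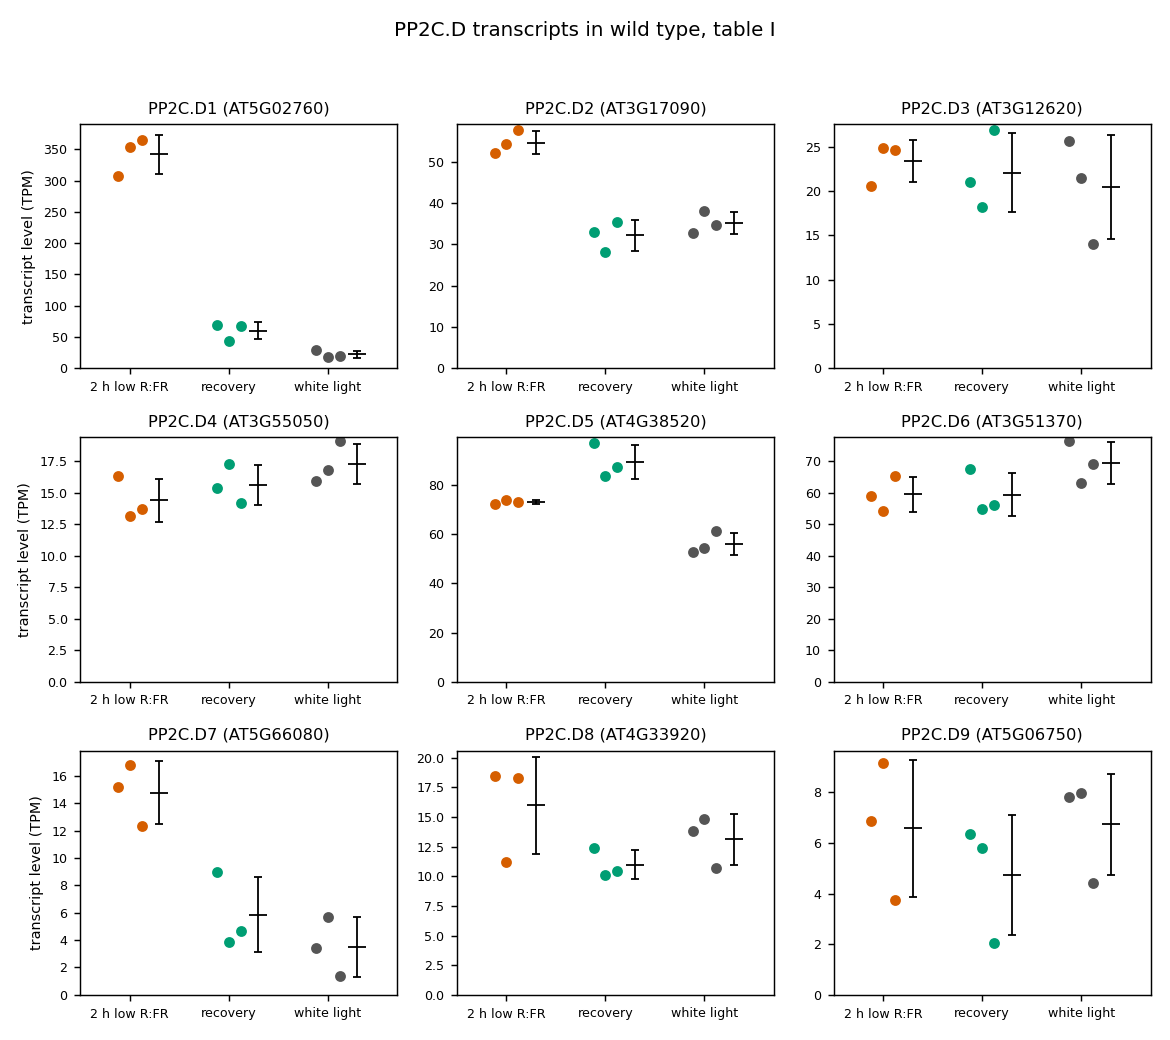
Transcript level in TPM (vertical axes, each from 0) of each PP2C.D gene in wild type of table I, with 1 point per library at 2 h of low R:FR, on recovery and in white light, and the mean ± SD (n = 3) beside each group. PP2C.D1 stands at 342 ± 31.0 TPM at 2 h, 59.9 ± 13.5 TPM on recovery and 22.2 ± 5.57 TPM in white light, and PP2C.D2 and PP2C.D7 are also highest at 2 h.

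2 further members were higher at 2 h without overlap of the libraries. PP2C.D7 was at 15.2, 16.8 and 12.3 TPM at 2 h, against 3.43, 5.71 and 1.35 TPM in white light, a log2 difference of 1.93. PP2C.D2 was at 52.0, 54.2 and 57.7 TPM at 2 h, against 32.8, 38.0 and 34.8 TPM in white light, a log2 difference of 0.62. PP2C.D5 was at 72.4, 73.8 and 73.4 TPM at 2 h, all above the 52.7, 54.3 and 61.3 TPM of white light, but by a log2 difference of 0.38 only.

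PP2C.D3, PP2C.D4, PP2C.D6, PP2C.D8 and PP2C.D9 had log2 differences of -0.25 to 0.25 at 2 h. PP2C.D6, the most abundant member in white light, was at 59.5 ± 5.54 TPM at 2 h and 69.5 ± 6.72 TPM in white light.

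The members without PP2C.D1 summed to 262 ± 5.88 TPM at 2 h, 240 ± 20.1 TPM on recovery and 222 ± 6.84 TPM in white light. PP2C.D2, PP2C.D5 and PP2C.D6 summed to 187 ± 7.86 TPM at 2 h, 181 ± 15.6 TPM on recovery and 161 ± 5.04 TPM in white light. The median log2 difference of the 9 members at 2 h was 0.25, beside -0.00085 over all 19070 genes of at least 1 TPM on average. This contrast chose the family, so the medians are description only.

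On recovery, members differed in how they stood against white light. PP2C.D1 was higher on recovery than in white light that never had low R:FR, by 1.39 on the log2 scale. Its 95% interval was 0.95 to 1.84, with limma adjusted p = 0.0160 (Benjamini-Hochberg over all genes of the table, called under 0.05). PP2C.D5 was at 97.3, 84.0 and 87.4 TPM on recovery, against 52.7, 54.3 and 61.3 TPM in white light. Every recovery library of PP2C.D5 lay above every white light library, and above every 2 h library. The rise of PP2C.D5 from white light was 0.67 ± 0.10 (SE) on the log2 scale (limma adjusted p = 0.0201). Between recovery and 2 h its log2 difference was 0.29 and did not pass (adjusted p = 0.375). Recovery and 2 h were set against the same white light libraries, so a part of harvest time or age may not be separable from the light. The PP2C.D1 values of those white light libraries took part in choosing the family. The test of PP2C.D1 on recovery is therefore not independent of that choice.

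Of the 8 members other than PP2C.D1, 1 rose on recovery, PP2C.D5, beside 0.395% of all genes raised and 0.711% called in either direction. None fell. PP2C.D7 was at 8.98, 3.88 and 4.69 TPM on recovery, overlapping its white light libraries (log2 0.66, adjusted p = 0.578). The calls on PP2C.D1 and PP2C.D5 depend on single libraries. For PP2C.D1 the adjusted p was 0.0528 without white light replicate 3, 0.0729 and 0.0785 without recovery replicates 1 and 3, and 0.0549 with only these groups fitted (0.00468 to 0.0785 over the 12 alternatives). For PP2C.D5 it was 0.0532 without white light replicate 2, 0.0874, 0.0532 and 0.0839 without recovery replicates 1, 2 and 3, 0.0602 with a replicate block and 0.0627 with only these groups fitted (0.00976 to 0.0874).

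Markers of other tissues moved in the same libraries. Green shoot markers summed to 56570 to 63870 TPM on recovery and 55360 to 63650 TPM at 2 h, in both below every white light library (68220 to 75890 TPM). In either comparison 0 of 5 were called, beside 0.711% of all genes on recovery and 1.97% at 2 h. Dry seed markers summed to 44.6 to 91.7 TPM on recovery and 43.4 to 108 TPM at 2 h, overlapping the 80.6 to 188 TPM of white light. OLEO1, an oil body protein of seeds, was called lower on recovery, at 8.69 ± 0.78 TPM, against 29.6 ± 14.0 TPM in white light (limma adjusted p = 0.0451), and the other seed marker, CRA1, was not called. Root markers overlapped between all groups. The part of these markers in the values of the phosphatases was not tested.

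Set against 2 h, PP2C.D2 fell on recovery. It was at 33.0, 28.1 and 35.4 TPM on recovery, against 52.0, 54.2 and 57.7 TPM at 2 h, a log2 change of -0.75 ± 0.12 (SE, limma adjusted p = 0.0157), and its recovery libraries overlapped those of white light. PP2C.D1 had a log2 difference of -2.51 between recovery and 2 h, given without a test because its 2 h level chose the family. PP2C.D7 had a log2 difference of -1.26, with no overlap of its recovery and 2 h libraries, and did not pass (adjusted p = 0.311). Of the 8 members other than PP2C.D1, 1 was lowered, beside 0.746% of all genes lowered and 1.11% called in either direction. The call on PP2C.D2 ended with a replicate block (adjusted p = 0.0505), without 2 h replicates 1, 2 and 3 (0.0505, 0.0637 and 0.0732) and without recovery replicates 1 and 2 (0.0562 and 0.0677). Over the 12 alternatives its adjusted p was 0.00652 to 0.0732.

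PIF7 binding events were looked for within 3 kb of each member or inside it, in 3 deposited event lists from ChIP of the tagged protein. The lists were called on pooled replicates, so they carry no replicate error, and positions, strengths, folds and -log10 q are the authors' own, on TAIR10. The 30 min over white light list sets 30 min of low R:FR against white light. The ZT4 over IgG list sets samples harvested at ZT4, a time given relative to dawn, against an IgG control of wild type. It is deposited with a sample titled as low R:FR. For the ZT4 over white light list, the deposited description and the sample titles give the light treatments of the same samples in opposite ways, so which light condition stood on top could not be settled. The sample of the ZT4 over IgG list is among them, so its light condition is not settled either. How long low R:FR lasted for the ZT4 lists is not given in the sources used here. In 30 min over white light 3 of 9 members had an event, beside 8.67% of 27444 protein-coding genes. In ZT4 over IgG and in ZT4 over white light 2 of 9 had an event, beside 6.06% and 6.40% of genes.

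PP2C.D7 and PP2C.D6 had an event in all 3 lists, within 1 kb of the gene, and each was the nearest protein-coding gene to its event. The sequences shown are the k-mers that the event caller listed at these events, since they carry the motif on which PIF proteins are known to bind. Capitals mark the G-box CACGTG or the related PIF-binding element CACATG, on the strand listed by the caller (plus).
PP2C.D7, 30 min over white light: CACGTG
PP2C.D7, ZT4 over IgG: CACGTG
PP2C.D7, ZT4 over white light: ccCACATGggag
PP2C.D6, 30 min over white light: CACATG
PP2C.D6, ZT4 over IgG: CACATG
PP2C.D6, ZT4 over white light: gCACATGggag

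The PP2C.D7 events lay on chromosome 5 at position 26425476 in 30 min over white light, 26425473 in ZT4 over IgG and 26425496 in ZT4 over white light, all within 23 bases. Their strength was 197.5 with a fold of 9.20 over control at 30 min, rank 219 of 1408 events by strength. In ZT4 over IgG the strength was 335.7 with a fold of 6.40, rank 167 of 1052, and in ZT4 over white light 895 with a fold of 4.70, rank 92 of 998. The k-mer listed for PP2C.D7 was the G-box in 2 lists and CACATG in the list whose event lay farthest along the chromosome.

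The PP2C.D6 events lay on chromosome 3 at positions 19068901, 19068898 and 19068897 in the same order of lists, within 4 bases. Their strengths were 205.5, 272.2 and 490, with folds of 5.80, 6.80 and 3.50 over control, at ranks 203, 271 and 303. All of its k-mers held CACATG and none the G-box. Among all events of the lists the G-box was in the k-mer of 69.9%, 62.5% and 79.7%, and CACATG or its reverse complement CATGTG in 13.1%, 9.60% and 3.01%. No k-mer held both.

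PP2C.D2 had an event in 30 min over white light alone, at position 5831211 of chromosome 3, with a strength of 76.0, a fold of 3.40 and a -log10 q of 2.47. It ranked 1265 of 1408, and the nearest protein-coding gene was AT3G17100, not PP2C.D2. PP2C.D1 had no event within 3 kb in any list, nor did PP2C.D3, PP2C.D4, PP2C.D5, PP2C.D8 or PP2C.D9. A distance of 10 kb, chosen after seeing the data, added PP2C.D3 and PP2C.D2 in both ZT4 lists, and still gave none for PP2C.D1.

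**Figure D2:**
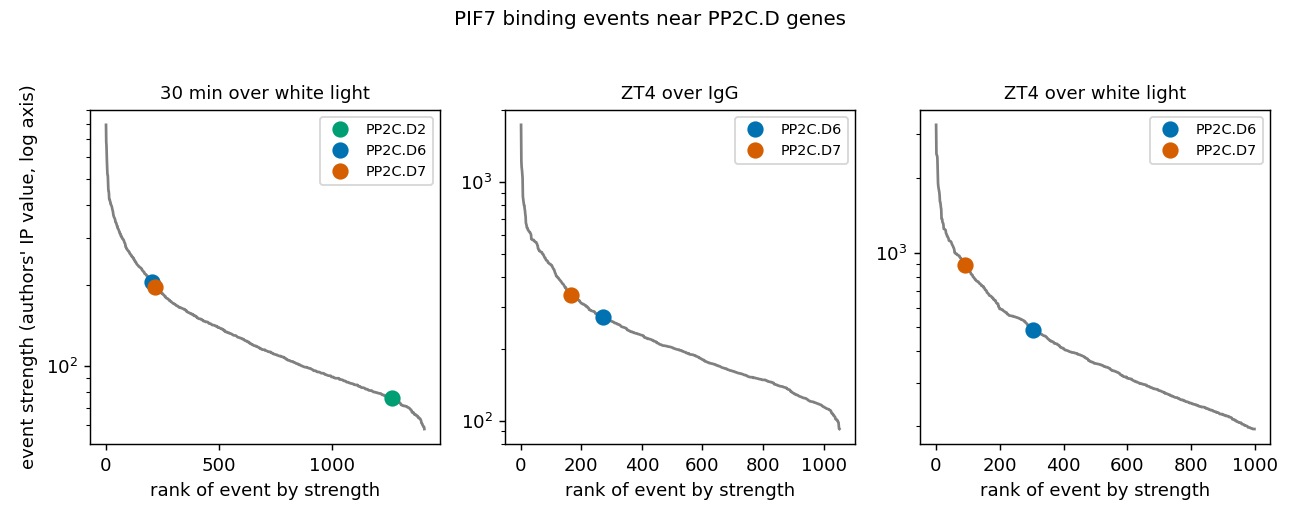
Strength of every PIF7 event (the authors' IP value, log axis) against its rank in each of 3 deposited lists, with the events near PP2C.D7, PP2C.D6 and PP2C.D2 marked as points. PP2C.D7 ranks 219, 167 and 92, PP2C.D6 ranks 203, 271 and 303, and PP2C.D2 appears in 30 min over white light only, at rank 1265.

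Within the first 30 min of low R:FR in the tagged line, PP2C.D7 rose most of the 2 members called. Its level was 2.03, 3.94 and 2.82 TPM in white light, 2.53, 3.93 and 2.77 TPM at 5 min, 6.31, 3.76 and 5.65 TPM at 10 min and 20.5, 19.7 and 19.1 TPM at 30 min. The 30 min libraries lay far above all others, while the 10 min libraries overlapped those of white light. At 30 min the change from white light was 2.43 ± 0.21 (SE) on the log2 scale, with a 95% interval of 1.96 to 2.89 (limma adjusted p = 9.4e-05). At 30 min PP2C.D7 was also higher than at 10 min, by 1.76 (adjusted p = 0.0011), 1 of 9 members beside 4.43% of all genes raised and 8.25% called in either direction. Both calls held in all 12 alternatives. PP2C.D7 made up 7.11% of the TPM of the family at 30 min, against 1.22% in white light. Dry seed markers summed to 27.5 to 327 TPM at 30 min, against 3.73 to 39.2 TPM in white light, both under 0.05 unadjusted and neither called (limma adjusted p = 0.221 for CRA1 and 0.236 for OLEO1). PP2C.D7 spanned 19.1 to 20.5 TPM in the 30 min libraries, and the part of seed transcripts in these values was not tested.

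PP2C.D6 was the other member called at 30 min, with a small change. It was at 89.1, 87.8 and 93.5 TPM at 30 min, against 80.0, 75.4 and 71.8 TPM in white light, with no overlap, and its log2 change was 0.25 ± 0.055 (SE, limma adjusted p = 0.0275). 2 of 9 members rose at 30 min, beside 3.80% of all genes raised and 4.83% called in either direction. The median log2 change at 30 min was 0.15 over the 9 members and 0.079 over all 18702 genes of at least 1 TPM on average. Relative to the median of genes, centred per library, the change of PP2C.D6 was 0.15 and did not pass (adjusted p = 0.176). It also missed with a replicate block (0.0663), with only these groups fitted (0.116), without white light replicates 2 and 3 (0.0540 and 0.110) and without 30 min replicates 1 and 3 (0.0793 and 0.113). Over its 12 alternatives the adjusted p was 0.0296 to 0.176.

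PP2C.D1 was not called at any of these times. It was at 13.7, 9.97 and 12.5 TPM in white light, 11.9, 12.9 and 15.4 TPM at 5 min, 15.8, 14.3 and 17.5 TPM at 10 min and 14.1, 17.8 and 14.0 TPM at 30 min. The 10 min and 30 min libraries lay just above those of white light, by log2 differences of 0.38 (limma adjusted p = 0.12) and 0.32 (adjusted p = 0.230). The 95% interval at 30 min was 0.015 to 0.63.

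No member was called at 5 min or at 10 min by limma, 0 of 9 beside 3.88% and 6.43% of all genes. At an unadjusted p under 0.05 there was 1 member at 5 min, PP2C.D6, and there were 4 at 10 min, PP2C.D1, PP2C.D2, PP2C.D7 and PP2C.D9. PP2C.D7 had a log2 difference of 0.67 at 10 min (adjusted p = 0.0787). PP2C.D9 was at 6.39, 6.07 and 5.59 TPM at 10 min, against 4.17, 4.66 and 4.40 TPM in white light, with no overlap, and missed as well (log2 0.37, adjusted p = 0.0835). Root marker genes summed to 29.6 to 36.5 TPM at 10 min, against 7.78 to 26.2 TPM in white light. Of these, 5 of 6 were under 0.05 unadjusted with none called (median log2 1.08). At 30 min against 10 min 4 of 6 were under 0.05 unadjusted with none called (median log2 -0.87). The part of root markers in the 10 min values, and in the change of PP2C.D7 from 10 to 30 min, was not tested. At 30 min PP2C.D2, PP2C.D3, PP2C.D4, PP2C.D5, PP2C.D8 and PP2C.D9 had log2 differences of -0.09 to 0.27, none called.

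**Figure D3:**
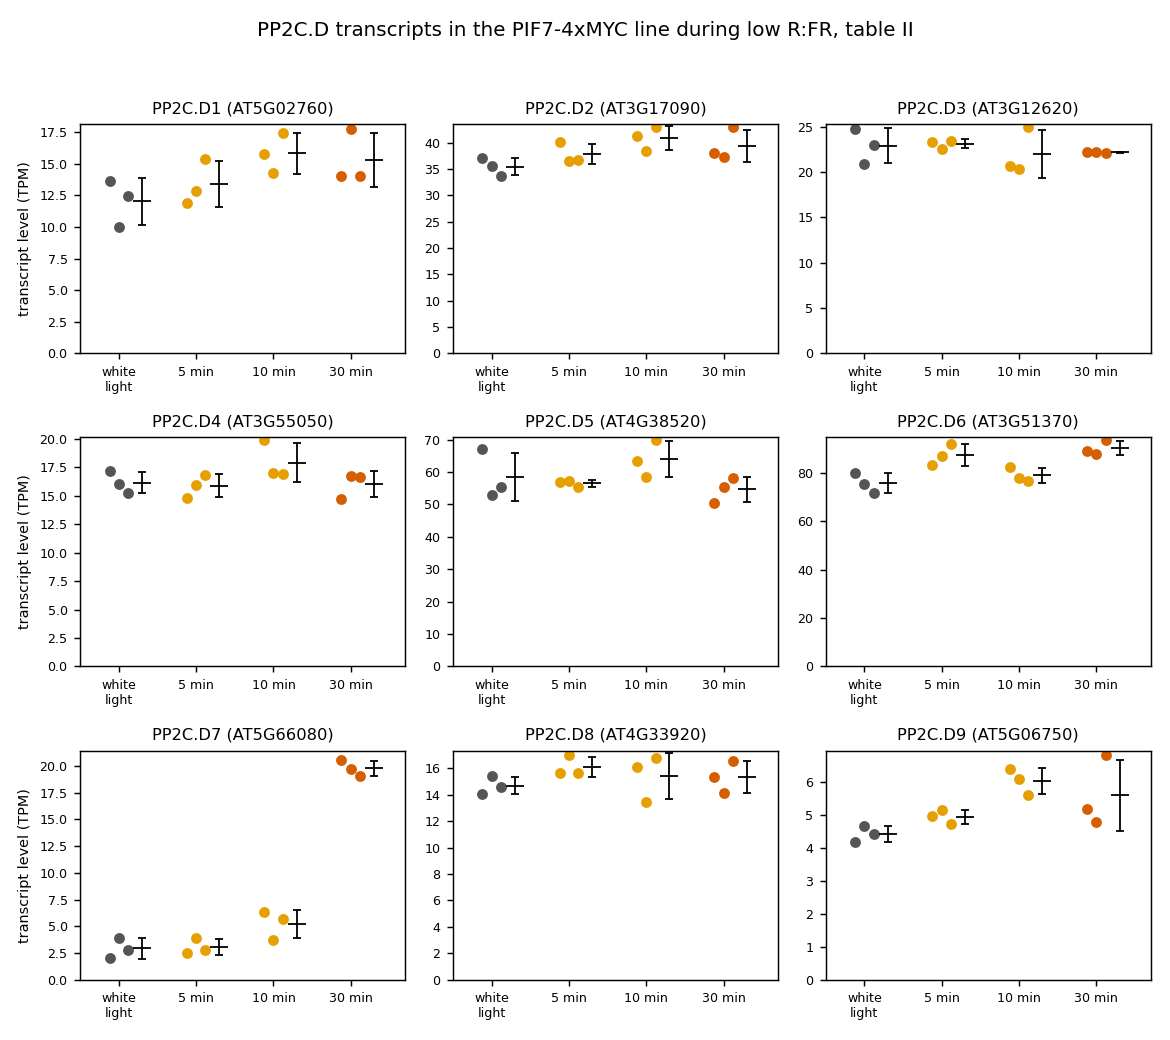
Transcript level in TPM (vertical axes, each from 0) of each PP2C.D gene in the PIF7-4xMYC line of table II, with 1 point per library in white light and at 5, 10 and 30 min of low R:FR, and the mean ± SD (n = 3) beside each group. PP2C.D7 stands at 19.8 ± 0.73 TPM at 30 min and 2.93 ± 0.96 TPM in white light, while PP2C.D1 stays between 9.97 and 17.8 TPM.

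In table III no member was called between 30 min of low R:FR and white light in either genotype (limma, 0 of 9). For pif457 that stood beside 0.0123% of all genes, and for wild type beside 0.119%, with 2 libraries per group. At an unadjusted p under 0.05 there were 0 members in pif457 and 1 in wild type, PP2C.D7. PP2C.D7 was at 2.47 and 3.97 TPM in pif457 at 30 min and at 4.45 and 3.69 TPM in pif457 in white light. In wild type it was at 6.81 and 6.26 TPM at 30 min, against 3.59 and 3.85 TPM in white light. The wild type libraries did not overlap between light conditions, and the pif457 libraries did. Root markers moved in the same wild type libraries, with sums of 98.9 and 60.6 TPM at 30 min, against 40.6 and 22.9 TPM in white light, and all 6 were under 0.05 unadjusted with none called (median log2 1.31). Green shoot markers summed to 48260 and 52910 TPM in wild type at 30 min, against 58320 and 61640 TPM in white light. The part of these markers in the wild type change of PP2C.D7 was not tested.

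The log2 change of PP2C.D7 at 30 min was -0.28 in pif457, with a 95% interval of -0.84 to 0.27, and 0.67 in wild type, with an interval of 0.12 to 1.23 (limma adjusted p = 0.753 and 0.416). The difference between the genotypes in this change was -0.96, with an interval of -1.75 to -0.17, and did not pass (unadjusted p = 0.0232, limma adjusted p = 0.325). 0 of 9 members passed that test of the difference, beside 0.041% of all genes, and PP2C.D7 was the only member under 0.05 unadjusted. All 6 root markers were under 0.05 unadjusted in the same test of the difference, with none called (median log2 -2.02). Without the pif457 library that stands apart, replicate 1 at 30 min, the difference was -0.70 (adjusted p = 0.3), and without replicate 2 it was -1.22 (adjusted p = 0.0438), over a range of 0.0438 to 0.787 in 13 alternatives. The wild type change of 0.67 stands beside the 2.43 of the tagged line, but the tables were normalised separately and the difference between them was not tested.

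At 30 min itself PP2C.D7 had a log2 difference of -0.86 ± 0.24 (SE) between pif457 and wild type, which missed the threshold (limma adjusted p = 0.0921, unadjusted p = 0.0075). None of the 9 members passed in this comparison, beside 5.25% of all genes called and 5.04% lowered, with 2 members, PP2C.D1 and PP2C.D7, at an unadjusted p under 0.05. Without pif457 replicate 1, the library that stands apart, the log2 difference of PP2C.D7 was -0.60. Without pif457 replicate 2 it was -1.12, with only the library that stands apart left in that group. PP2C.D7 passed among genes of at least 1 TPM (limma adjusted p = 0.0217), with rRNA and organellar genes removed (0.0345) and with median centring (0.0203). Its highest adjusted p over 10 alternatives was 0.456. All 9 members were lower in replicate 1 of pif457 than in replicate 2 at 30 min. All genes of at least 1 TPM had a median log2 difference of -0.19 between pif457 and wild type at 30 min, and the 9 members one of -0.24.

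As a share of the TPM of the family, PP2C.D7 held 1.43 to 1.49% in pif457 at 30 min, against 2.56 to 2.57% in wild type at 30 min. In white light it held 1.54 to 1.77% in pif457 and 1.42 to 1.61% in wild type. The share also depends on the levels of the other members. Root markers differed between the same 30 min groups, and no share was tested.

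PP2C.D1 was lower in pif457 in both light conditions without overlap of the libraries. At 30 min it was at 7.88 and 14.7 TPM in pif457, against 20.8 and 15.9 TPM in wild type, and in white light at 11.0 and 11.9 TPM in pif457, against 17.4 and 25.2 TPM in wild type. The log2 differences were -0.70 at 30 min (limma adjusted p = 0.270) and -0.82 in white light (adjusted p = 1, unadjusted p = 0.0260), so neither passed. Without pif457 replicate 1 at 30 min the 30 min value was -0.29 (adjusted p = 0.586), and without replicate 2 it was -1.11 (adjusted p = 0.0315). In white light 0 of 9 members passed between the genotypes, beside 0.0287% of all genes, and PP2C.D1 was the only member under 0.05 unadjusted.

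PP2C.D6, which has PIF7 events in all lists, had a log2 difference of -0.020 between pif457 and wild type at 30 min, with a 95% interval of -0.52 to 0.48. It was at 48.5 and 81.2 TPM in pif457 at 30 min, the widest spread of any group of this gene, against 65.0 and 62.3 TPM in wild type. Root markers moved with the genotype at 30 min: their summed level was 3.94 and 10.2 TPM in pif457, against 98.9 and 60.6 TPM in wild type, and all 6 were called lower. In white light the sums were 15.0 and 23.0 TPM in pif457, against 40.6 and 22.9 TPM in wild type. Dry seed markers summed to 33.5 to 85.4 TPM in pif457 in white light, against 2.14 to 5.46 TPM in wild type in white light, both under 0.05 unadjusted and neither called. At 30 min their sums were 4.09 to 23.2 TPM in pif457 and 2.82 to 3.29 TPM in wild type. The part of root and seed markers in the differences of the phosphatases between genotypes was not tested.

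**Figure D4:**
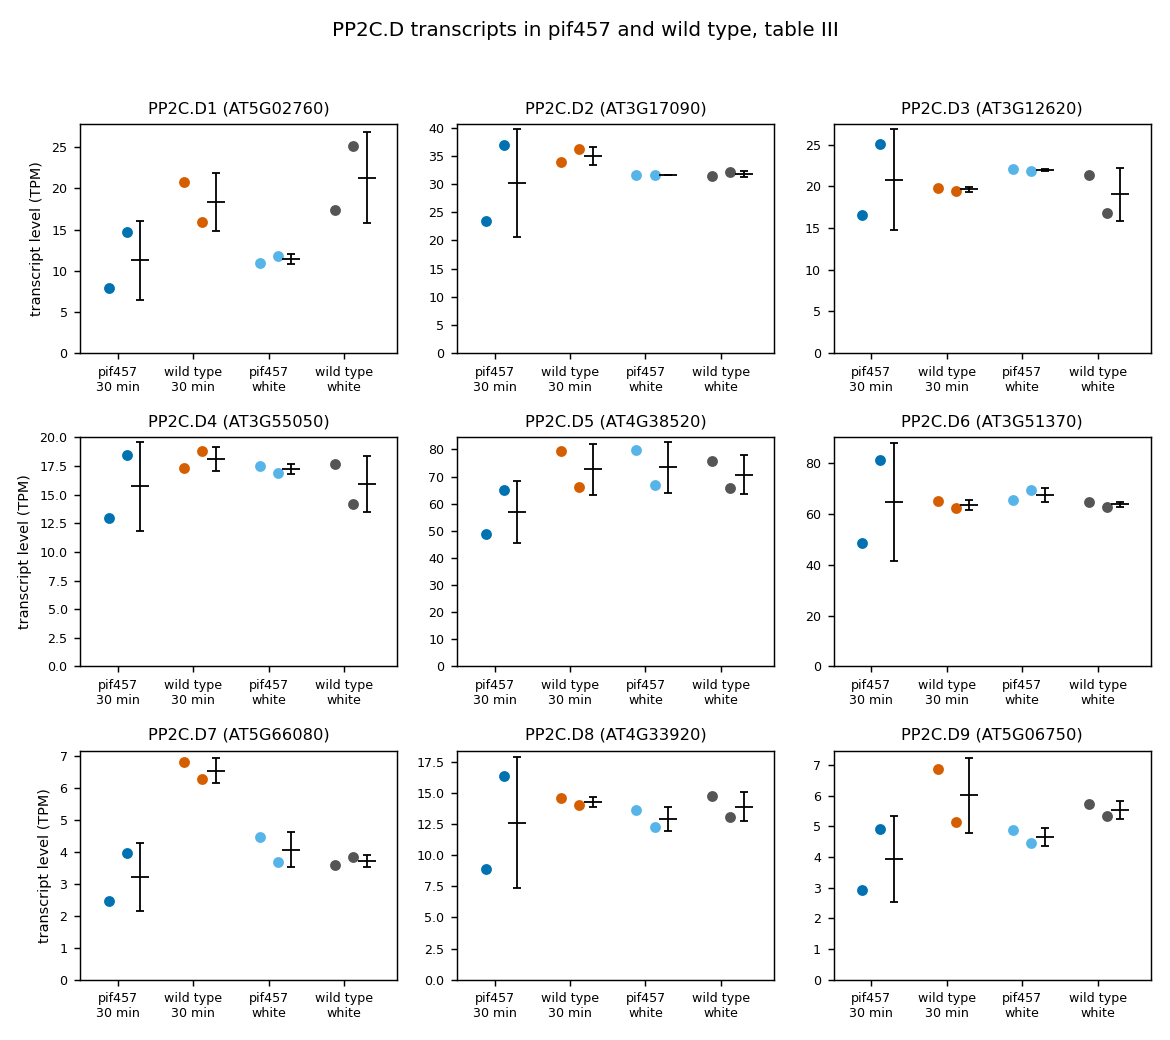
Transcript level in TPM (vertical axes, each from 0) of each PP2C.D gene in table III, with 1 point per library for pif457 and wild type at 30 min of low R:FR and in white light, and the mean ± SD (n = 2) beside each group. PP2C.D7 stands at 3.22 ± 1.06 TPM in pif457 at 30 min and 6.54 ± 0.39 TPM in wild type at 30 min, and every member has its pif457 replicate 1 below replicate 2 at 30 min.

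**Figure D5:**
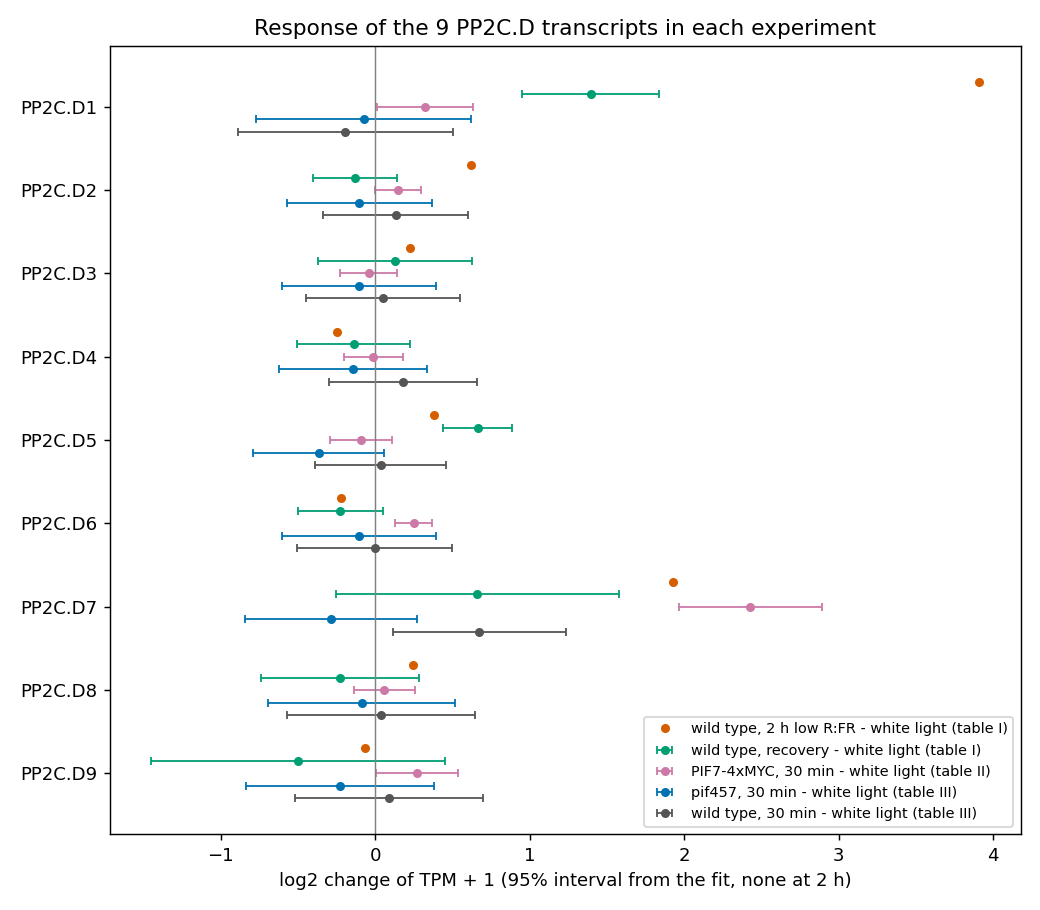
Log2 change of TPM + 1 (horizontal axis) for each PP2C.D gene in 5 comparisons, each low R:FR or recovery minus white light, with its 95% interval from the fit except at 2 h, the contrast that chose the family. PP2C.D1 is set apart at 2 h (3.91) and on recovery (1.39), PP2C.D7 at 2 h (1.93) and at 30 min in the PIF7-4xMYC line (2.43), and the other members lie between -0.50 and 0.67.

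Among the inhibitors of PP2C.D phosphatases, 4 of the 6 genes of the SAUR19 subfamily were raised at 2 h and none lowered (limma). That stood beside 1.24% of all genes raised and 1.97% called in either direction. SAUR19 to SAUR24, the SAUR19 subfamily, summed to 206 ± 42.0 TPM at 2 h, 15.1 ± 1.15 TPM on recovery and 27.8 ± 8.11 TPM in white light. Set against 2 h, 5 of 6 were lowered on recovery, beside 0.746% of all genes lowered. SAUR19 was at 11.0, 13.6 and 11.2 TPM at 2 h and was listed at 0 in all recovery and white light libraries. These near-identical copies share reads, so the value of a single copy is uncertain. Of the 70 SAUR genes tested of 80 listed by RefSeq symbol, 11 were raised and 0 lowered at 2 h, beside the same 1.24% of all genes raised, and 12 were lowered on recovery against 2 h.

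Of other SAUR proteins known to bind PP2C.D phosphatases, SAUR9 was at 2.49 ± 1.24 TPM at 2 h and 0.25 ± 0.43 TPM in white light, and SAUR72 at 2.28 ± 0.70 TPM at 2 h and 2.83 ± 1.19 TPM in white light, neither called. SAUR40 was listed at 0 in all of table I. In the tagged line the SAUR19 subfamily summed to 29.2 ± 7.68 TPM in white light, 34.7 ± 6.03 TPM at 5 min, 44.6 ± 6.45 TPM at 10 min and 60.2 ± 9.79 TPM at 30 min, with 1 of 6 called at 30 min (SAUR21), beside 4.83% of all genes called. At 30 min the subfamily summed to 36.1 ± 6.10 TPM in pif457 and 66.6 ± 14.8 TPM in wild type. There 1 of 6 was called lower, beside 5.04% of all genes lowered. It was SAUR19, at 1.00 ± 0.37 TPM in pif457 against 4.71 ± 0.41 TPM in wild type (limma adjusted p = 0.0410). SAUR9, which averaged below 1 TPM in both groups, was also called lower. It was at 0.15 ± 0.12 TPM in pif457 against 0.85 ± 0.29 TPM in wild type (adjusted p = 0.0354). The part of the pif457 library that stands apart was not tested for these SAUR genes.

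Few transcripts of the H+-ATPases, the targets of the phosphatases, passed the test. AHA1 and AHA2, the main pumps of seedlings, were at 233 ± 27.9 and 205 ± 23.4 TPM at 2 h, against 247 ± 23.2 and 169 ± 17.8 TPM in white light. None of 10 pumps tested was called at 2 h by limma, beside 1.97% of all genes, with 3 under 0.05 unadjusted. The median log2 difference of the list was -0.045. On recovery 1 of 10 was raised, beside 0.395% of all genes: AHA11, named after its values were seen, at 54.0 ± 1.69 TPM against 27.5 ± 4.25 TPM in white light (limma adjusted p = 0.0210). In the tagged line 1 of 10 was raised at 10 min (AHA7) and 1 at 30 min, beside 4.19% and 3.8% of all genes raised. The one called at 30 min, AHA2, rose to 177 ± 9.86 TPM at 30 min, against 122 ± 23.2 TPM in white light (log2 0.55, adjusted p = 0.0247). Between pif457 and wild type at 30 min 1 of 10 was lowered, beside 5.04% of all genes lowered. It was AHA2, at 87.9 ± 26.0 TPM in pif457, against 189 ± 32.7 TPM in wild type (log2 -1.12, limma adjusted p = 0.0244). Summed over all pumps, the pif457 libraries at 30 min spanned 331 to 495 TPM. The part of the pif457 library that stands apart was not tested for the pumps.

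The TMK kinases, which phosphorylate the pumps in response to auxin, had 0 members called in any comparison (limma), beside 0.0123% to 8.25% of all genes. TMK1 was at 35.9 ± 3.62 TPM at 2 h and 31.5 ± 1.89 TPM in white light, and TMK4 at 37.1 ± 2.47 TPM at 2 h and 30.5 ± 1.53 TPM in white light. At an unadjusted p under 0.05 there were 0 of the 3 TMK genes tested at 2 h. There was 1 on recovery against white light and 1 on recovery against 2 h. Of the 4 tested in the tagged line, 2 were under 0.05 at 5 min, 1 at 10 min, 1 at 30 min and 1 at 30 min against 10 min. Of 11 14-3-3 genes tested in table I, 0 were called at 2 h, beside 1.97% of all genes, with 3 under 0.05 unadjusted. On recovery 1 of 11 was raised, beside 0.395% of all genes. In the tagged line 2 of 11 were raised at 5 min and 3 of 11 at 10 min, beside 2.58% and 4.19% of all genes raised. None of the 11 was called between 30 min and white light (limma), beside 4.83% of all genes, with 4 under 0.05 unadjusted. Set against 10 min, 2 of 11 were lower at 30 min, beside 3.81% of all genes lowered. In table III 0 of 12 were called by limma in any comparison, beside 0.0123% to 5.25% of all genes, nor was any under 0.05 unadjusted.

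Clade A type 2C phosphatases, which act in abscisic acid signalling, are another family of 9 genes with the same type of phosphatase domain. None of 9 was called at 2 h by limma, beside 1.97% of all genes, with 1 under 0.05 unadjusted. It was ABI1, at 49.3 ± 8.56 TPM at 2 h and 31.3 ± 4.57 TPM in white light (log2 0.64, adjusted p = 0.0894). The median log2 difference of clade A at 2 h was -0.071. It is not set against PP2C.D, since the 2 h contrast chose that family. In the tagged line 1 of 9 was raised at 5 min and 1 at 30 min, beside 2.58% and 3.8% of all genes raised. The one raised at 30 min was PP2CA, at 31.2 ± 3.22 TPM, against 21.1 ± 2.1 TPM in white light (log2 0.54, adjusted p = 0.0100). No test compared the families.

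The genes most like PP2C.D1 over the libraries were sought among 13546 genes of at least 5 TPM on average in each table, by the mean of the Pearson correlations within table I (9 libraries), table II (12) and table III (8). They were CSLC04 (AT3G28180, mean r 0.84), SHY2, also called IAA3 (AT1G04240, 0.84), BZIP61 (AT3G58120, 0.83), AT3G62110 (0.82) and AT2G35880 (0.81). For CSLC04 the correlation was 0.98 in table I, 0.63 in table II and 0.92 in table III. Libraries of a table fall into groups, so these values describe differences between groups as much as spread within them. For PP2C.D7, searched after its values were seen, the nearest were AT1G21050 (0.92), AIF4 (AT1G09250, 0.91), AT4G32290 (0.90), PAR1 (AT2G42870, 0.90) and HAT2 (AT5G47370, 0.90). PP2C.D1 and PP2C.D7 correlated with each other at 0.87 in table I, 0.42 in table II and 0.54 in table III.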

How the data were processed

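The submitters' processing notes name STAR 2.6.0c, RSEM 1.3.0 and Bowtie2 2.1.0 and the build TAIR10. The RNA-seq tables hold the authors' TPM per gene model, deposited as 3 tables, with 0 unmapped value columns. Per the file headers, the deposited event lists give a strength (signal, IP and control columns), a fold over control (a ratio) and a -log10 q per event. Per the deposited file list, events were called with GEM.

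From the TPM, log2(TPM + 1), with a pseudocount of 1, was modelled by limma 3.58.1 in R 4.3.3 with trended variance. Each table had its own model over all its groups, without a block, on 25331, 24589 and 24384 genes after dropping those at 0 throughout. Benjamini-Hochberg adjustment ran over those genes in each of 12 comparisons, and calls were made at an adjusted p under 0.05. Scripts were first tested on simulated data.

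Replicate numbers did not pair libraries (median residual correlation of same-number libraries -0.0088, -0.058 and -0.017). The members and lists were chosen with earlier results of these data known. All 9 members were above 1 TPM on average and tested in each table. Named genes are the members, marked genes of the pathway lists, PIF4, PIF5 and PIF7, and the 5 genes most like PP2C.D1; AHA7, AHA11, OLEO1, CRA1, AT3G17100 and the 5 genes most like PP2C.D7 were added after their values were seen. Symbols come from a RefSeq table of TAIR10.1, which has no strand, so an event was assigned within 3 kb of a gene span. No promoter or protein sequences were used here. Alternatives were a pseudocount of 0.1, genes of at least 1 TPM, a replicate block, TPM rescaled without rRNA and organellar genes, median centring, a 2-fold minimum (counts only), the compared groups alone, and leaving out each library (a lone library left in a group was taken to vary like the others). Python 3.11.15, numpy 2.4.6, pandas 2.3.3 and matplotlib 3.10.9 were used for events and figures.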

Additional observations from a re-analysis of the deposited data

How the results depend on the processing

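No called change of a member reversed under any alternative tried. On recovery against white light 2 passed, PP2C.D1 of the choice among them. That count was 1 with a replicate block, 1 at 2-fold or more, 0 with only the compared groups, and 0 to 2 without single libraries. On recovery against 2 h, PP2C.D1 left aside, 1 passed, 0 with a replicate block, 0 at 2-fold or more, and 0 to 1 without single libraries. In the tagged line at 10 min 0 passed, 1 among genes of at least 1 TPM (PP2C.D7), and 0 to 1 without single libraries. At 30 min there 2 passed, 1 with a replicate block, 1 with median centring, 1 at 2-fold or more, 1 with only the compared groups, and 1 to 2 without single libraries. Between pif457 and wild type at 30 min 0 passed, 2 among genes of at least 1 TPM (PP2C.D1 and PP2C.D7), 1 with rRNA and organellar genes removed, 1 with median centring, and 0 to 6 without single libraries. The pif457 response and the difference of responses had 0 members, 0 to 3 without single libraries (3 without pif457 30 min replicate 2, each). Events within 10 kb, chosen after seeing the data, gave 4 members in each ZT4 list, against 2 within 3 kb. The cause of these shifts was not tested. The replicate block rests on a number that did not pair the libraries, and outside the 2 h comparison it changed no other count of calls by over 1.5 times. Of single members' values, outside the 2 h comparison that chose the family, 1072 kept their side of the threshold, 23 lost it and 18 gained it over the alternatives. Most of those kept were members not called in the main fit. All 23 losses fell on calls: PP2C.D1 in 4 and PP2C.D5 in 6 of 12 alternatives on recovery against white light. The others were PP2C.D2 in 6 of 12 on recovery against 2 h and PP2C.D6 in 7 of 12 at 30 min in the tagged line. TPM keeps no depth, so no limit from read counts can be given for PP2C.D7 and PP2C.D9, the lowest members.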
